A study of Mus musculus with 54 samples.

Results

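Cerebellar granule cell genes are described here in the brains of Mbd5+/GT and WT mice. The set held 9 genes, chosen by name as known markers or regulators of the granule neuron: Zic1, Zic2, Neurod1, Etv1, Pax6, En2, Cbln1, Cbln3 and Fat2. They are 9 of the 47069 genes of the count table, and each had counts in cerebellum, cortex and striatum. PolyA RNA from each of these 3 regions was sequenced once per animal, which gave 54 libraries from 10 Mbd5+/GT and 8 WT mice at 8 weeks of age. All mice were on a C57BL/6 background and carried no other labelled allele or treatment. Mbd5+/GT mice are heterozygous for a gene-trap construct (pU-21B) that landed in the second intron of Mbd5 and makes a hypomorphic allele, although the sample field calls the genotype a heterozygous deletion. The insertion is present in every cell of the body, and homozygous mice die around birth, so the model lowers Mbd5 without removing it. There were 3 litters. Litter 1 was all female, with 3 animals of each genotype, litter 2 was all male, with 4 heterozygotes and 1 WT, and litter 3 was mixed in sex, with 3 heterozygotes and 4 WT. Each library is named by the number of its mouse, such as M755.

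Granule neurons of the cerebellum are small glutamatergic cells that outnumber all other neurons of the brain. They receive mossy fibers in the granular layer and send parallel fibers to the dendrites of Purkinje cells. Their precursors arise from the rhombic lip, divide in the external granular layer after birth and migrate inward, and in the adult mouse no such precursor layer remains. Zic1 and Zic2 are zinc finger factors of the granule lineage, Neurod1 is a basic helix-loop-helix factor needed for granule cells to differentiate, Pax6 is a paired-box factor of the rhombic lip, En2 is a homeobox factor that patterns the midbrain and cerebellum, and Etv1 is an ETS factor of maturing granule cells that also marks layer 5 neurons of the cortex. Cbln1 is secreted by parallel fibers, binds presynaptic neurexins and organizes the synapse with Purkinje cells, Cbln3 is a cerebellin that is secreted together with Cbln1, and Fat2 is a giant atypical cadherin found on parallel fibers.

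The promoters of 3 members are shown because these genes stand for the transcription factors, the differentiation factor and the cerebellins of the set. Each window runs from 250 bases before to 50 bases after the transcription start in RefSeq on GRCm38.p6 and is written 5′ to 3′ on the strand of the gene. Capitals mark the letters CANNTG, the E-box that basic helix-loop-helix proteins such as Neurod1 recognize, and the motif is its own reverse complement in form, so 1 search covers both strands. The Zic1 window is chr9:91365719-91366018 on the minus strand, the Neurod1 window is chr2:79456587-79456886 on the minus strand, and the Cbln3 window is chr14:55884207-55884506 on the minus strand.
Zic1: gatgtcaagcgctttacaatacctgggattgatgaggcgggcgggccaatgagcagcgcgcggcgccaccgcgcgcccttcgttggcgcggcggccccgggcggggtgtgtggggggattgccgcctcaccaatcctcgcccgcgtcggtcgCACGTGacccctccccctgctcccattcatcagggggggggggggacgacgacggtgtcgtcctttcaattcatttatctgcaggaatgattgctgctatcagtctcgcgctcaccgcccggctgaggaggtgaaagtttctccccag
Neurod1: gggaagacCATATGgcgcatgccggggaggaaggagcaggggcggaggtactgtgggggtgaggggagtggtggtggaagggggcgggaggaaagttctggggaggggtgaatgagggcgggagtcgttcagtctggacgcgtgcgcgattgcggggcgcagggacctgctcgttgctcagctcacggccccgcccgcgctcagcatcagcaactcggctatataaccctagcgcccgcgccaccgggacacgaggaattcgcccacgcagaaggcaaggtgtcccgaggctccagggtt
Cbln3: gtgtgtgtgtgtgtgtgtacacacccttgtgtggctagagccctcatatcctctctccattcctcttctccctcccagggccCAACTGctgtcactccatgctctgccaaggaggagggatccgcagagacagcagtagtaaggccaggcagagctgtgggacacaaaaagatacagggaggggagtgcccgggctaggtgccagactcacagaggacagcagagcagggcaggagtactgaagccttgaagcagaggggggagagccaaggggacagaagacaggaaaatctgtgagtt
Each of these windows held 1 match. Of 32851 promoter windows of the same length, 72.3% held at least 1, so the match does not set these genes apart. RefSeq windows were available for 6 of the 9 members, and those of Zic2, Cbln1 and En2 were not analysed here. Among the available windows, a window of Etv1 and a window of Pax6 held no CANNTG.

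Sequencing placed between 25295973 and 49027399 reads on genes in each library, with a median of 29073866. Mbd5 itself had a median of 40.9 CPM in Mbd5+/GT and 55.5 CPM in WT cerebellum, 44.9 and 65.8 CPM in cortex, and 36.9 and 47.9 CPM in striatum, and the ranges of the genotypes overlapped in each region. CPM are counts scaled to a common library total, after adjustment of that total by the trimmed mean of M values (TMM). Defining markers of the cerebellum were far above the forebrain in 17 of its 18 libraries: Pcp2, a Purkinje cell gene, lay between 225 and 521 CPM in the 14 libraries other than M754, M755, M756 and M761, at 295 CPM in M756, 149 CPM in M761 and 97.9 CPM in M754, and at no more than 3.05 CPM in any cortex or striatum library. The library labelled M755 cerebellum, from a Mbd5+/GT mouse of litter 3, went against its label, with 1.79 CPM of the granule cell receptor subunit Gabra6 (556 to 974 CPM in the 14), 1.63 CPM of Pcp2 and 85.7 CPM of Hoxb5, a hindbrain and spinal cord gene. Hoxb5 was also above 1 CPM in the cerebellum libraries of M754 (WT, 37.5 CPM), M756 (Mbd5+/GT, 13.5 CPM) and M761 (WT, 11.1 CPM), and no higher than 0.435 CPM in the other 14. These 4 libraries were singled out after the values had been seen, and results are given with and without them. Cortex and striatum libraries were not cleanly apart: the summed level of 8 striatal neuron genes exceeded that of 8 cortical neuron genes in 16 of 18 striatum libraries and in 4 of 18 cortex libraries (M752, M761, M765 and M766). In the striatum library of M754 the striatal sum was 273 CPM, against 714 to 8133 CPM in the other 17.

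In cerebellum all 9 genes were expressed at levels far above those of the forebrain regions. Over the 14 libraries Zic1 ranged from 597 to 1054 CPM with a median of 880, against 8.94 to 72.8 CPM (median 26.3) in the 18 cortex libraries and 9.21 to 153 CPM (median 17.97) in the 18 striatum libraries. Zic2, its paralog, ranged from 193 to 248 CPM (median 215) in cerebellum, 6.65 to 16.3 CPM (median 10.7) in cortex and 4.31 to 56.8 CPM (median 6.79) in striatum. Both Zic genes thus kept a low level in the forebrain regions, and none of those libraries reached the lowest of the 14 cerebellum libraries. Neurod1 ranged from 286 to 480 CPM (median 422) in cerebellum, 4.81 to 13.5 CPM (median 8.24) in cortex and 0.565 to 4.402 CPM (median 2.17) in striatum. Etv1 ranged from 145 to 487 CPM (median 279) in cerebellum, 30.2 to 67.9 CPM (median 41.9) in cortex and 21.1 to 46.9 CPM (median 33.3) in striatum. Of the 9 genes Etv1 had the smallest step between cerebellum and the forebrain regions. Pax6 ranged from 98.1 to 142 CPM (median 119) in cerebellum, 7.21 to 15.2 CPM (median 9.49) in cortex and 5.12 to 27.6 CPM (median 9.80) in striatum. En2 ranged from 119 to 134 CPM (median 126) in cerebellum and stayed near 1 CPM elsewhere, at 0.302 to 1.65 CPM in cortex and 0.130 to 1.73 CPM in striatum.

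The genes of the parallel fiber synapse were high in cerebellum and low in the forebrain. Cbln1 ranged from 666 to 1025 CPM (median 819) in the 14 cerebellum libraries, 3.13 to 21.3 CPM (median 6.81) in cortex and 4.88 to 21.0 CPM (median 7.69) in striatum. Cbln3 ranged from 1305 to 1948 CPM (median 1556) in cerebellum, 0.746 to 16.6 CPM (median 1.53) in cortex and 0.742 to 3.86 CPM (median 1.47) in striatum. Fat2 ranged from 522 to 1307 CPM (median 774) in cerebellum, 0.424 to 10.99 CPM (median 0.811) in cortex and 0.233 to 2.01 CPM (median 0.736) in striatum. For each of these genes the cerebellum range lay clear of both forebrain ranges. Together the 9 genes took 0.459 to 0.607% of the reads on genes in the 14 cerebellum libraries, 0.0081 to 0.0186% in cortex and 0.0056 to 0.0281% in striatum. In such bulk tissue, fewer cells of a type and less RNA per cell cannot be told apart.

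**Figure D1:**
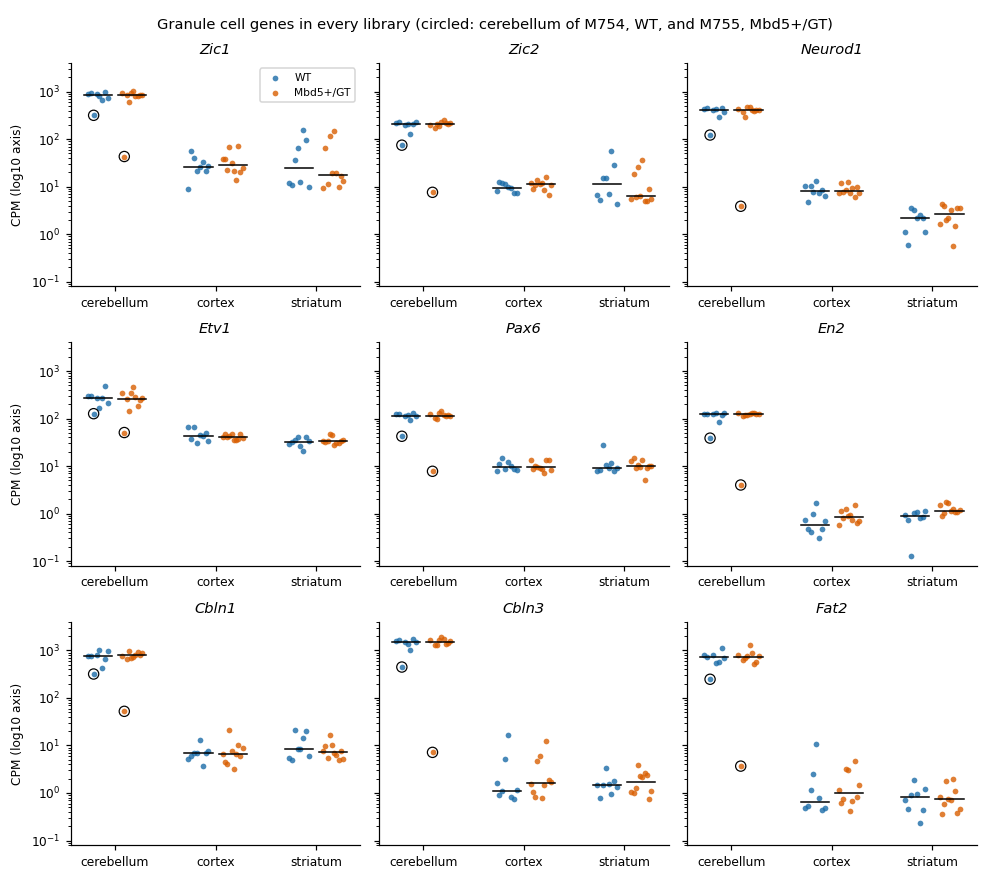
Level of each of the 9 genes in every library (CPM on a log10 axis) by region, with WT in blue, Mbd5+/GT in orange, each dot 1 library and each line the median of a group. All 9 genes sit highest in cerebellum, and the circled cerebellum libraries of M754 and M755 lie below the others, with M755 as low as 7.17 CPM for Cbln3 against 1305 to 1948 CPM in the 14.

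Every member was higher in cerebellum than in cortex when tested with all libraries. The test was edgeR's quasi-likelihood test over 20477 genes and all 54 libraries, with Benjamini-Hochberg adjustment and a threshold of 0.05. Of all genes tested, 35.5% were called higher in cerebellum than in cortex. The 3 regions came from the same mice, and this fit did not use the mouse as a block. With the mouse as replicate block, all 9 members were called higher as well. The log2 difference was largest for Cbln3, at 8.61 (SE 0.52, 390-fold), and for Fat2, at 8.43 (SE 0.50). En2 followed at 7.04 (SE 0.28), Cbln1 at 6.56 (SE 0.30), Neurod1 at 5.35 (SE 0.30), Zic1 at 4.55 (SE 0.42), Zic2 at 4.14 (SE 0.33) and Pax6 at 3.34 (SE 0.20). Etv1 had the smallest difference, 2.54 (SE 0.16, 5.80-fold). The largest edgeR adjusted p among the 9 was 7.96e-14, for Zic1.

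Against striatum the members were again all higher in cerebellum, where 38% of all genes were called in that direction. The log2 differences were 9.62 (SE 0.55) for Cbln3, 9.61 (SE 0.53) for Fat2, 7.28 (SE 0.34) for Neurod1, 6.75 (SE 0.27) for En2, 6.27 (SE 0.30) for Cbln1, 4.05 (SE 0.41) for Zic1, 3.67 (SE 0.32) for Zic2, 3.28 (SE 0.20) for Pax6 and 2.96 (SE 0.17) for Etv1. The largest edgeR adjusted p was 1.25e-12, again for Zic1. Without the 4 cerebellum libraries with Hoxb5, all 9 were again called higher, against 34.5% and 36.1% of all genes, with log2 differences from 2.65 (Etv1) to 8.79 (Cbln3) against cortex and from 3.05 (Etv1) to 9.78 (Cbln3) against striatum. The ranges of the libraries depended on M755 alone: without it, 17 cerebellum libraries lay above every cortex and every striatum library for all 9 genes. With M755 included, the ranges were apart for 2 of 9 genes against cortex (Cbln1 and En2) and for 5 of 9 against striatum. In these data, Neurod1 in that library was at 3.87 CPM, below the lowest cortex library at 4.81 CPM.

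Levels of different genes are compared per kilobase of exon, since long genes collect more reads. In the 14 cerebellum libraries Cbln3 had 323 ± 36.2 CPM per kb (SD, n = 14) and Cbln1 had 275 ± 37.4 CPM per kb, and their ranges overlapped. Zic1 and Neurod1 came next and were level with each other, at 152.4 ± 19.8 and 152.2 ± 17.6 CPM per kb. Zic2 had 75.0 ± 5.35, Fat2 54.3 ± 14.9, En2 35.6 ± 1.46, Etv1 21.7 ± 7.61 and Pax6 10.3 ± 0.898 CPM per kb. The ranges were apart between Cbln1 and Zic1 and between Neurod1 and Zic2, and every other pair of neighbours in this order overlapped. Exon length here is the union of all annotated exons of a gene over every transcript. By this measure Fat2 is the longest of the set (14528 bases) and Neurod1 the shortest (2729 bases). Etv1 (115 exon records, 13296 bases) and Pax6 (199 records, 11694 bases) have many annotated transcripts, while En2 and Neurod1 have 2 records each. How much of that length is transcribed here was not tested, so the places of Etv1 and Pax6 in this order depend on the annotation. In cortex the order ran from Zic1 (5.73 CPM per kb), Zic2 (3.65), Etv1 (3.29), Neurod1 (3.19), Cbln1 (2.49), Pax6 (0.875), Cbln3 (0.689) and En2 (0.234) to Fat2 (0.131). In striatum it ran from Zic1 (8.09 CPM per kb), Zic2 (5.06), Cbln1 (3.09), Etv1 (2.55), Pax6 (0.933), Neurod1 (0.874), Cbln3 (0.356) and En2 (0.301) to Fat2 (0.0603). In both forebrain regions all neighbours overlapped, and the cerebellins, first in cerebellum, stood below the Zic genes.

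Positions are on GRCm38. Zic2 and Cbln3 are both on chromosome 14, at 122475435-122479852 and 55878913-55884392, and Neurod1 and Pax6 are both on chromosome 2, at 79452521-79456751 and 105668900-105697364. Zic1 lies at chromosome 9, 91358058-91365810, beside its paralog Zic4, with which it shares 60 bases of exon on opposite strands. Neurod1 shares 201 bases of exon with Cerkl on the same strand and 154 bases with the lincRNA Gm26755 on the other, so a small part of the reads of Zic1 and Neurod1 is uncertain. The other members are Etv1 (chromosome 12, 38779380-38870484), Cbln1 (chromosome 8, 87468405-87472609), Fat2 (chromosome 11, 55250609-55336564) and En2 (chromosome 5, 28165694-28172166), and their exons overlap no other annotated gene.

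The 4 cerebellum libraries with Hoxb5 differed in how low the granule cell genes stood, and only M755 and M754 lay below the other 14 for every member. In M755 the members stood at 0.461% (Cbln3) to 18.2% (Etv1) of their medians over the other 14 libraries. Neurod1 and Fat2 were at 0.916% and 0.475%, while Zic1, Cbln1 and Pax6 kept 4.90%, 6.40% and 6.53%. In M754 all members were between 28.8% (Cbln3) and 45.4% (Etv1) of the median. M761 ranged from 52.7% (Cbln1) to 97.5% (Etv1), and M756 from 79.8% (Cbln1) to 94.4% (Zic1). Within the range of the 14, M756 lay for Zic1, Neurod1, Etv1, Fat2 and Pax6, and M761 for Zic1, Neurod1, Etv1 and Fat2. Etv1 was lower in M756 (93.1%) than in M761. The summed level of a brain stem list of 16 genes, most of them Hox genes, was 475 CPM in M755 and 169 CPM in M754. It was 67.6 CPM in M761 and 62.5 CPM in M756, against at most 5.54 CPM in the other 14. Hoxb5 itself was higher in M756 (13.5 CPM) than in M761 (11.1 CPM). Mbp, a myelin gene, was at 13718 CPM in M755 and 7858 CPM in M754, against 1815 to 3519 CPM in the 14. The part of these in the levels of the granule cell genes was not tested.

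**Figure D2:**
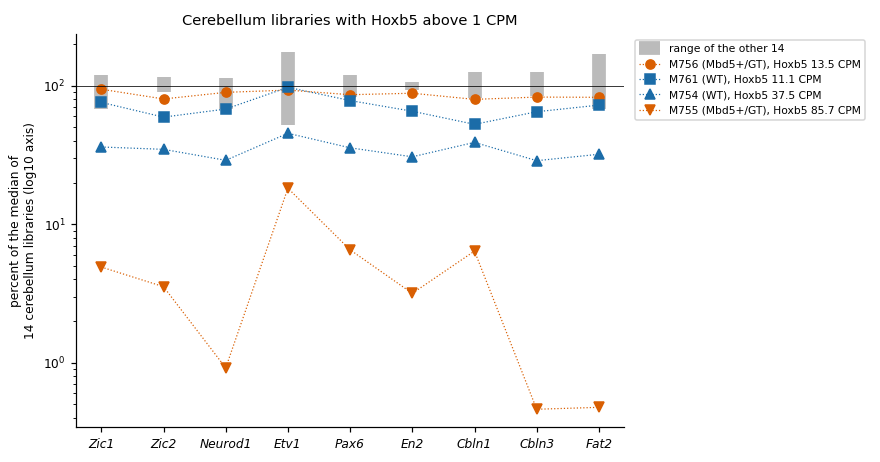
Level of each gene in the cerebellum libraries of M754, M755, M756 and M761 as a percent of the median of the other 14 cerebellum libraries (log10 axis), with the range of the 14 in grey. M755 lies lowest for every gene, from 0.461% (Cbln3) to 18.2% (Etv1), M754 lies between 28.8 and 45.4%, and M756 and M761 lie closer to 100%.

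Spread between mice in cerebellum rested on these libraries. With all 18, the biological coefficient of variation was 44.3% (Etv1) to 71.1% (Fat2), against a median of 24.1% over 18160 genes. This is edgeR's model estimate of the spread beyond counting error, and it is not each gene's own observed spread. Over the 14 libraries it was 9.003% for En2, 10.4% for Zic2, 11.02% for Pax6, 13.1% for Cbln3, 14% for Neurod1, 15.1% for Zic1 and 15.8% for Cbln1, below the median of 17.7% over 17654 genes. En2 was then among the steadiest genes of the cerebellum, at the 2.42nd percentile. Fat2 and Etv1 varied more than most genes, at 24.9% and 32.6%, the latter at the 88.9th percentile. Over the 14, the plain coefficient of variation of CPM was 4.10% for En2, 7.13% for Zic2, 27.4% for Fat2 and 35.1% for Etv1. Etv1 was lowest in M758 (145 CPM), M759 (169 CPM) and M766 (183 CPM) and highest in M763 (470 CPM) and M762 (487 CPM), and both genotypes were found at either end.

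Over all 18 cerebellum libraries, log2 levels centred on genotype rose and fell together, with Pearson r from 0.67 to 0.997 (median 0.98 over 36 gene pairs) and a median Spearman rho of 0.74. The points share the 4 libraries with Hoxb5 described above, and over the 14 the median r was 0.28, with a range from -0.93 to 0.94. Zic1 then moved with Neurod1 (r = 0.94) and Pax6 (r = 0.93), and Cbln3 with Etv1 (r = 0.91) and Fat2 (r = 0.88). Cbln1 ran against Etv1 (r = -0.93), although both are genes of the same cell. Another measure moved with this split: among 13221 protein-coding genes, the median change of those with at least 7088 bases of exon less that of those with at most 2976 bases ran from -0.55 log2 units in M766 to 0.70 in M763. Over the 14 libraries its r was 0.98 with Etv1, 0.89 with Cbln3 and Fat2, 0.83 with Pax6, 0.82 with Zic1 and 0.68 with Neurod1, -0.94 with Cbln1, -0.48 with En2 and 0.00 with Zic2. Without the 2 libraries farthest from the median of this measure, r was 0.97 with Etv1 and -0.95 with Cbln1. With the others it was 0.83 (Cbln3), 0.77 (Zic1), 0.76 (Fat2), 0.74 (Pax6), 0.64 (Neurod1), -0.28 (En2) and -0.14 (Zic2). By annotated exon length, Etv1 (13296 bases), Fat2 and Pax6 are themselves long enough for the upper group. Zic2 and Neurod1 are short enough for the lower, while Cbln1 (3037 bases) lies just outside it. The part of gene length in the levels was not tested.

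**Figure D3:**
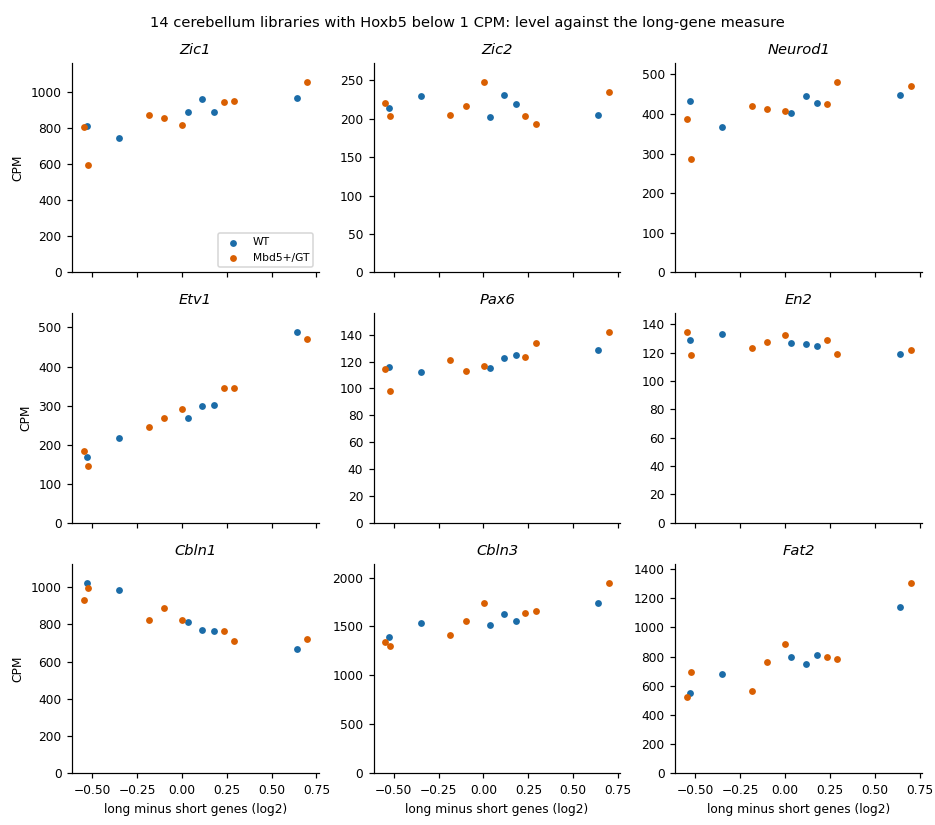
Level (CPM) of each gene in the 14 cerebellum libraries with Hoxb5 below 1 CPM against the difference between long and short genes in the same library (log2), with WT in blue and Mbd5+/GT in orange. Etv1 is highest (470 and 487 CPM) in the libraries at the right end, M763 and M762, and Cbln1 is low there (723 and 666 CPM).

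Between the forebrain regions, 4 of 9 members were called higher in cortex than in striatum and none lower, where 58.9% of all genes were called in either direction and 30.1% higher in cortex. Neurod1 differed most, by 1.93 log2 units (SE 0.27, 3.80-fold, edgeR adjusted p = 9.56e-08), and its range of 4.81 to 13.5 CPM in cortex lay above that of 0.565 to 4.402 CPM in striatum. Etv1 was 0.42 log2 units higher (SE 0.15, adjusted p = 0.0172), Fat2 1.18 (SE 0.44, adjusted p = 0.0187) and Cbln3 1.014 (SE 0.41, adjusted p = 0.0319), with ranges that overlapped. With the mouse as replicate block, Neurod1 and Etv1 were called, and Fat2 (0.88, adjusted p = 0.0808) and Cbln3 (0.55, adjusted p = 0.24) were not. The differences of Zic1 (-0.50, SE 0.36), Zic2 (-0.46, SE 0.29), Cbln1 (-0.29, SE 0.24), En2 (-0.29, SE 0.27) and Pax6 (-0.06, SE 0.19) did not pass the test.

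Cbln3 and Fat2 were highest in a few cortex libraries. Cbln3 was highest in the cortex libraries of M759 (16.6 CPM), M766 (12.5 CPM), M760 (5.92 CPM), M757 (5.08 CPM) and M758 (4.63 CPM) and was between 0.746 and 1.86 CPM in the other 13. Fat2 was highest in the same 5 libraries, at 2.54 to 10.99 CPM against 0.424 to 1.46 CPM. These were also the 5 cortex libraries with Gabra6 above 1 CPM, and they had more Pcp2 (0.953 to 3.05 against 0.0961 to 0.509 CPM) and Car8, another Purkinje cell gene (22.7 to 34.5 against 12.4 to 21.9 CPM). Over the 18 cortex libraries, r with Gabra6 was 0.97 for Cbln3 and 0.94 for Fat2. In striatum, the 5 libraries with Gabra6 above 1 CPM (M757, M758, M760, M764 and M766) had 2.25 to 3.86 CPM of Cbln3, against 0.742 to 2.13 CPM in the others. Unlike in cortex, the other genes overlapped between these striatum libraries and the rest. Fat2 had 0.751 to 2.01 against 0.233 to 1.23 CPM, Pcp2 0.318 to 0.978 against 0.0332 to 1.14 CPM, and Car8 9.03 to 15.7 against 8.15 to 15.5 CPM. Leaving out all of these libraries, a choice made after the values had been seen, removes every high cortex value of both genes by construction, and the log2 differences between cortex and striatum were then -0.09 for Cbln3 (adjusted p = 0.859) and 0.27 for Fat2 (adjusted p = 0.633). Neurod1 ranged from 6.15 to 13.5 CPM in the cortex libraries with Gabra6 above 1 CPM, with its highest values in M759 and M760, and from 4.81 to 11.7 CPM in the others. Etv1 ranged from 30.2 to 47.3 and from 33.3 to 67.9 CPM. Their relation to Gabra6 was not tested.

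In striatum the Zic genes varied more than any other member. The biological coefficient of variation was 96.3% for Zic1 and 76.1% for Zic2, against a median of 22.1% over 18546 genes and 19.2% for Etv1. Zic1 was at 35.7 CPM in M754, 64.3 in M757, 66.2 in M755, 96.2 in M762, 116 in M758, 152 in M763 and 153 in M761, and at 9.21 to 19.9 CPM in the other 11 libraries. The same 7 mice, of both genotypes, were highest for Zic2 (15.2 to 56.8 against 4.31 to 9.13 CPM). They were also the striatum libraries with more than 100 CPM of a summed list of genes of the septum and thalamus, counted without Zic4. Of that list, Calb2 had 37.8 to 214 CPM there and 5.09 to 16.9 CPM in the others. Tcf7l2 and Prkcd, also on the list, overlapped between these libraries and the others. Tcf7l2 had 6.39 to 63.9 against 3.27 to 7.66 CPM, and Prkcd 13.8 to 340 against 10.005 to 18.03 CPM. Over the 18 libraries, r with the sum of the list was 0.93 for Zic1, 0.94 for Zic2 and 0.85 for Cbln1. In cortex it was 0.95 for Zic1. The paralog Zic4 was at 9.56 to 46.2 CPM in the same libraries, against 1.49 to 5.84 CPM in the others. Their part in the level of Zic1 and Zic2 was not tested.

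**Figure D4:**
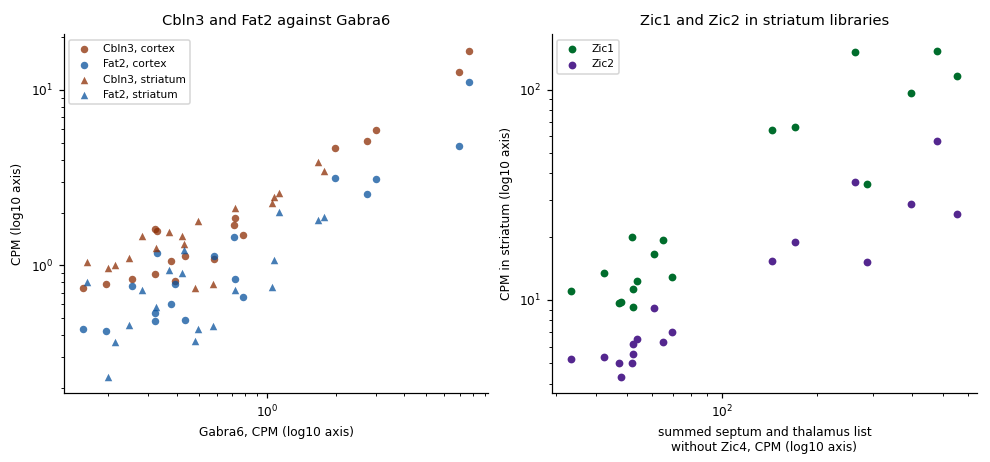
Left, Cbln3 and Fat2 against Gabra6 in each cortex (dots) and striatum (triangles) library. Right, Zic1 and Zic2 against the summed septum and thalamus list without Zic4 in each striatum library, with all axes in CPM on a log10 scale. Cbln3 and Fat2 are highest in the cortex libraries with most Gabra6 (up to 16.6 and 10.99 CPM), and Zic1 and Zic2 are highest where the list is above 100 CPM.

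Other members had high single libraries. Pax6 in striatum reached 27.6 CPM in M754, the library with the lowest striatal neuron sum, and 5.12 to 15.1 CPM in the other 17. Its level ran against the striatal neuron sum over the 18 striatum libraries (r = -0.86) and with Dcx, a gene of migrating neuroblasts (r = 0.92). In cortex the gene most like Pax6 was Eomes (r = 0.87), a T-box factor of unipolar brush cells and of forebrain progenitors. Cbln1 in cortex was highest in M758 (21.3 CPM) and M759 (13.3 CPM), and 3.13 to 10.2 CPM in the rest. Etv1 ran against the striatal neuron sum in cortex (r = -0.79). These correlations are descriptions over 18 libraries that share their tissue mixtures.

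No member passed the test between the genotypes in cerebellum. Zic1 had a median of 842 CPM (43.2 to 1054) in Mbd5+/GT and 850 CPM (318 to 967) in WT, Neurod1 410 CPM (3.87 to 480) and 415 CPM (122 to 449), and Cbln3 1488 CPM (7.17 to 1948) and 1528 CPM (448 to 1743). The ranges of the genotypes overlapped for all 9 genes. In edgeR's test with 2 surrogate variables, 0 of 9 were called, 0 passed an unadjusted p of 0.05, and DESeq2 also called 0, while 0.00551% of all genes were called and 2.75% passed an unadjusted p of 0.05. All 9 log2 differences were below 0, from -0.07 (Etv1, SE 0.05) to -0.39 (Cbln3, SE 0.37). Without M755 alone they ran from -0.02 (Etv1, SE 0.05) to 0.02 (Fat2, SE 0.11), and without the 4 libraries with Hoxb5 from -0.05 (Neurod1, SE 0.07) to 0.02 (Fat2, SE 0.10). In those 14, edgeR called 0 of 9, and 0 passed an unadjusted p of 0.05, against 0.00566% and 2.95% of all genes.

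With all 18 libraries the sign differed between litters. Litter 3, which held M754, M755 and M756, gave differences between -0.50 (Etv1) and -2.25 (Fat2) log2 units. Litters 1 (with M761) and 2 gave values between -0.19 and 0.34. When the 4 libraries with Hoxb5 were left out, litter 3 gave -0.09 (Zic2) to 0.26 (Etv1), with 1 Mbd5+/GT library remaining. Litter 1 then gave -0.13 (Neurod1) to 0.17 (Fat2). The exact permutation test over mice gave a smallest p of 0.753 among the 9 members (Etv1), 2-sided and unadjusted, over 43758 splits. That run included M755, the lowest library for every member. The same test without the 4 libraries with Hoxb5 gave a smallest p of 0.745 (Neurod1), over 3003 splits. Tests of the difference between regions in the genotype effect called 0 of 9 members for each pair of regions with edgeR and with DESeq2, and none passed an unadjusted p of 0.05 in edgeR. Over all genes 0% were called in each with edgeR, and 1.11%, 2.68% and 4.22% passed an unadjusted p of 0.05 for cerebellum against cortex, cerebellum against striatum and cortex against striatum.

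In cortex the genotypes overlapped as well. Etv1 had a median of 41.9 CPM (34.7 to 48.4) in Mbd5+/GT and 43.6 CPM (30.2 to 67.9) in WT, a difference of -0.14 log2 units (SE 0.06). It was the 1 member of 9 with an unadjusted p under 0.05 in edgeR (p = 0.0295, adjusted p = 0.520), where 8.47% of all genes passed that level and 0.0107% were called. The exact permutation test gave p = 0.422 for Etv1. Differences of the other members lay between -0.13 (Fat2, SE 0.76) and 0.41 (En2, SE 0.26), and DESeq2 called none of the 9. A list of choroid plexus genes had 5 of 6 members higher in Mbd5+/GT cortex at an unadjusted p under 0.05 and 0 called, with sums of 8.95 to 1246 CPM against 14.4 to 241 CPM in WT, and its part was not tested.

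In striatum En2 had the largest difference, at a level near 1 CPM. It ranged from 0.887 to 1.73 CPM (median 1.15) in Mbd5+/GT and from 0.130 to 1.11 CPM (median 0.887) in WT. The ranges overlapped, with the lowest value in M754. The log2 difference was 0.47 (SE 0.23, edgeR adjusted p = 0.687). The exact permutation test, 2-sided and without surrogate variables, gave an unadjusted p of 0.00194 over all splits and of 0.00686 over splits that keep the genotypes of each litter, as 1 of 27 such tests of 9 genes in 3 regions. The difference between the means of log2 levels was 0.68 in these tests and 0.39 without M754, where the same exact tests gave p = 0.0101 and 0.014. It was 0.70, 0.03 and 0.88 log2 units within litters 1, 2 and 3, and the value of litter 3 includes M754. In edgeR 0 of 9 members were called and 0 passed an unadjusted p of 0.05, where 0.00539% and 7.44% of all genes did so, and DESeq2 called none. Among the rest, differences ran from -0.32 (Cbln1, SE 0.24) to 0.28 (Neurod1, SE 0.16). Neurod1 ranged from -0.22 to 0.80 over the alternatives and was called in 1 of them, without the striatum libraries with Gabra6 above 1 CPM (0.80, adjusted p = 0.0213). That fit called 629 genes higher and 77 lower among 17960 tested. The libraries it left out were unbalanced by genotype: M758, M760, M764 and M766 were Mbd5+/GT and M757 was WT.

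**Figure D5:**
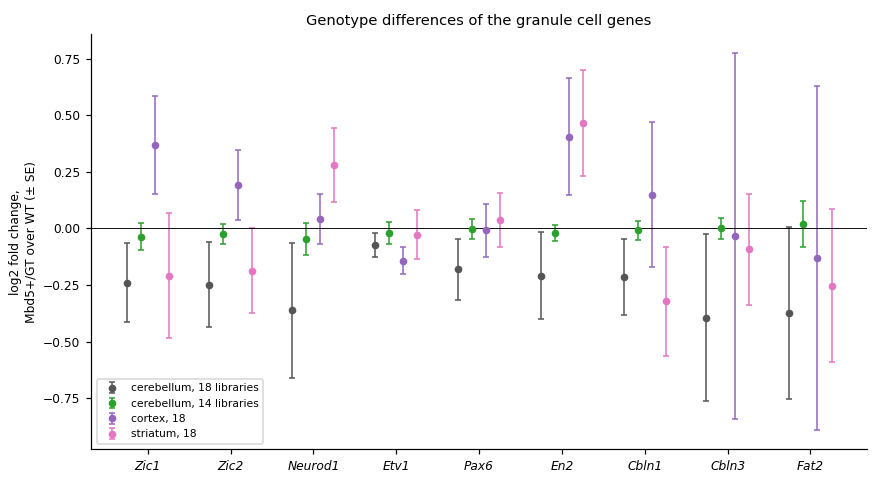
Log2 difference between Mbd5+/GT and WT (dot) with its standard error (bar) for each gene in cerebellum with all 18 libraries (grey), cerebellum with 14 libraries (green), cortex (purple) and striatum (pink). The grey dots all lie below 0 and the green ones within 0.05 of it, and En2 in striatum (0.47) is the highest dot.

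Other genes of the granule cell were read from lists of related genes. Of 20 further granule cell genes, 18 were called higher in cerebellum than in cortex and 1 lower, where 35.5% of all genes were called higher, with a median log2 difference of 1.93 against 0.02 over all genes. Gabra6 (8.75, SE 0.56) and Barhl1, a homeobox gene of the lineage (7.93, SE 0.36), led the list. Slc17a7, a vesicular glutamate transporter that cortical neurons also use, was lower (-1.22, SE 0.26), and Cntn1, a cell adhesion molecule, had a difference of -0.04 (SE 0.08) that did not pass. Against striatum 19 of 20 were higher and 0 lower, where 38% of all genes were called higher. The paralogs Zic4 and Zic5 were higher in cerebellum than in cortex too, by 2.90 (SE 0.36) and 3.42 log2 units (SE 0.33). En1, the paralog of En2, was low everywhere, with medians of 2.22 CPM in the 14 cerebellum libraries and 0 in cortex and striatum.

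Genes of granule precursors were found in both directions. Of 13, Atoh1, the rhombic lip factor, was too low to test, with no more than 0.0641 CPM in any cortex, striatum or 14-library cerebellum sample. Of the 12 tested, 5 were higher and 6 lower in cerebellum than in cortex, near the 35.5% of all genes called higher, with a median of -0.42 log2 units. Barhl2 (6.36, SE 0.42) and the Hedgehog target Gli1 (2.43, SE 0.19) were highest, and Insm1, a zinc finger factor of newborn neurons (-3.75, SE 0.21), and the cyclin Ccnd2 (-3.17, SE 0.16) were lowest. Against striatum the counts were also 5 and 6. Among 7 partners and relatives of the cerebellins, 2 were higher and 4 lower in cerebellum than in cortex, against the same share of all genes. Nrxn3, a neurexin, was higher by 0.33 log2 units (SE 0.07), whereas the forebrain cerebellins Cbln2 (-3.44, SE 0.55) and Cbln4 (-2.30, SE 0.42) were lower. None of the genes tested from these lists was called between genotypes in any region with edgeR. At an unadjusted p under 0.05 there were 0 in cerebellum, where 2.75% of all genes passed. In cortex there were 5 of 19 further granule cell genes, 3 of 12 precursor genes and 1 of 7 cerebellin partners, where 8.47% of all genes passed, and in striatum 2, 2 and 3, where 7.44% passed.

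The genes whose levels were most like each member were found by Pearson r of log2 CPM, centred on genotype, among 14489 genes over the 18 cerebellum libraries. Cbln3 and Fat2 were each most like Il16 (r = 0.9989 and 0.9939), which is on the granule cell list. Neurod1 was most like Car8 (0.9972) and Cbln1 like Neurod2 (0.996). Zic1 and Pax6 were both most like Zic4 (0.994 and 0.996), Zic2 like Barhl2 (0.9968), En2 like Ppp1r17, a Purkinje cell gene (0.9976), and Etv1 like Lrch3 (0.9908). The next in order were Cep76 and B3gnt5 for Zic1, Il20rb and Gprc5c for Zic2, Nrk and Il16 for Neurod1, Frrs1l and Scn2a for Etv1, Gm2694 and Pkp3 for Cbln1, Arhgef33 and Car8 for Cbln3, Ltbp2 and Mirt1 for Fat2, Bcl2l15 and Chn2 for Pax6, and Gm5083 and Barhl2 for En2. Genes of granule cells and of Purkinje cells are both in this group. The points share the low libraries M755 and M754. Without the 4 libraries with Hoxb5 the nearest genes included Sdr39u1 for Cbln1 (0.99), Prrc2b for Fat2 (0.99) and Gas7 for Cbln3 (0.98). The highest r was lower for Zic2 (Zfp746, 0.88) and En2 (Tlx3, 0.86).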

How the data were processed

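The authors aligned reads to GRCm38 with Ensembl 83 using STAR 2.4.2, after FastQC 0.10.1, and deposited counts per gene from its GeneCounts option, 1 column for each of 54 libraries. Which strand column was kept is not given in the sources used here, and reads with several alignments are not counted. The 92 spike-in rows were set aside, 495 genes absent from the annotation had no symbol, and 0 columns were unused.

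Counts were analysed with edgeR 4.0.16 (R 4.3.3): TMM, a filter that kept a gene if 8 or more libraries had over 4 counts, glmQLFit robust and glmQLFTest, and Benjamini-Hochberg adjustment over all genes at 0.05. Genotype was fitted in each region with 2 (cerebellum) or 4 (cortex, striatum) surrogate variables from sva 3.50.0, rounded to 4 decimals, following the study's methods. Regions were compared over 6 groups without them. DESeq2 1.42.0 and other settings were alternatives. Log2 levels used a prior count of 2, and permutation tests used the mice. Fits were tested on simulated counts. The mice are separate animals. Regions of 1 mouse pair by animal, and deviations correlated with a median r of 0.22, 0.0843 and 0.131 for cerebellum with cortex, cerebellum with striatum and cortex with striatum. Correlations are descriptions with no p.

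The members, gene lists and several tests were chosen with earlier results of these data known. Genes named were the members, per member the 3 most alike with a mean of at least 32 counts, the extremes of each list, and paralogs. Hoxb5, Gabra6, Mbp, Pcp2, Car8, Calb2, Tcf7l2, Prkcd, Dcx, Eomes and the libraries left out were chosen after their values were seen. Some genes that this rule names are not reported here.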

Additional observations from a re-analysis of the deposited data

Results flagged for a closer look

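Levels of the 9 genes were examined in 54 groups of gene, genotype and region. In 19 the highest or lowest library stood farther from its neighbour than Dixon's 95% limit. Chance flags about 1 in 20 independent groups, but these groups share libraries across genes, so the flags are not separate events. In Mbd5+/GT cerebellum the lowest library was M755 each time, at 43.16 CPM for Zic1, 7.614 for Zic2, 3.871 for Neurod1, 52.37 for Cbln1, 7.166 for Cbln3, 7.774 for Pax6 and 3.999 for En2. In WT cerebellum it was M754, at 318.0 CPM for Zic1 and 42.42 for Pax6. M755 and M754 also had the most Hoxb5 of the cerebellum libraries, at 85.7 and 37.5 CPM.

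In cortex the highest libraries were M759 in WT, at 16.64 CPM for Cbln3, 10.99 for Fat2 and 13.35 for Cbln1, and in Mbd5+/GT M766 for Cbln3 (12.53 CPM) and M758 for Cbln1 (21.35 CPM). These 3 libraries are among the 5 cortex libraries with Gabra6 above 1 CPM. In striatum they were M761 for Zic2 in WT (56.78 CPM), M757 for Cbln3 in WT (3.438 CPM), M758 for Cbln1 in Mbd5+/GT (16.52 CPM) and M754 for Pax6 in WT (27.59 CPM). En2 was lowest in the striatum library of M754, at 0.1301 CPM.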

How the results depend on the processing

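All 9 members were called higher in cerebellum than in cortex and than in striatum under each alternative run, with log2 differences from 2.46 (Etv1) to 10.1 (Cbln3) and from 2.88 (Etv1) to 10.1 (Fat2). For cortex against striatum, 4 members were called, and 2 with the mouse as replicate block, 2 without a filter on low counts, 2 in WT libraries only, 1 in Mbd5+/GT libraries only, 1 without litter 2, 2 without the 2 WT striatum libraries labelled as repeated and 2 without libraries with Gabra6 above 1 CPM, where Cbln3 changed sign (-0.088, adjusted p = 0.859). The replicate block changed no other call of a member. In cerebellum 0 members were called by genotype under every alternative, although 25 of 99 single differences changed sign. In cortex 1 member had an unadjusted p under 0.05 and 0 did with no surrogate variables, with litter and sex, or in either exact permutation test, and 3 did without libraries with Gabra6 above 1 CPM. In striatum 0 did, against 1 with DESeq2, with no filter, with no or 1 fewer surrogate variable, with litter and sex and in either permutation test, and 3 without libraries with Gabra6 above 1 CPM. That last fit called 1 member, Neurod1 (0.80, adjusted p = 0.0213), among 629 genes higher and 77 lower, against 0 higher and 1 lower with all libraries, and the cause was not tested. Over all genes, DESeq2 called 32 higher and 30 lower between genotypes in cortex, against 0 and 2 with edgeR, 0 and 3 against 0 and 1 in cerebellum, and 1 and 2 against 0 and 1 in striatum. Without a filter cortex gave 6 and 1. The median r between members in cerebellum was 0.9805, 0.7399 by Spearman and 0.2824 without the 4 libraries with Hoxb5. Leaving out libraries by Hoxb5, by Gabra6 or M755 was chosen after seeing the data. Members near 1 CPM in the forebrain regions rest on few reads (4 to 77 for En2), which limits the precision of their values.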
